A study of Papio anubis with 3 samples.

Results

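Outside chromosome 19, the autosomal H4K20me3 peaks of baboon neural progenitor cells included 5 blocks of at least 300 peaks each, on chromosomes 3, 6, 8, 11 and 20. A block was formed by joining neighbouring peaks separated by gaps of at most 50 kb, so the positions in the H4K20me3 list chose the members, and their number and density are descriptions without a test. The blocks held 2452 of the 10000 peaks in the list, or 24.5% (exact 95% binomial interval 23.7 to 25.4, counting error only), within 5.23 Mb or 0.197% of the genome span (the largest peak end on each chromosome, summed). The smallest block held 312 peaks and the largest cluster left out of the chromosomes considered, on chromosome 6, held 143. The smallest block, on chromosome 11, thus lay close to the limit of 300, and no cluster left out did. The longest gap inside a block was 45010 bp, and the shortest gap at an end of a block was 52353 bp.

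The cells were taken from the brain of an adult baboon (Papio anubis), from its subventricular zone, a layer beside the lateral ventricles of the brain that keeps neural stem cells. After dissociation they were captured on beads that carried antibodies to progenitor markers (Doublecortin, Nestin and GFAP among those listed), fixed with 1.1% formaldehyde and sheared to fragments of 200 to 500 bp. Chromatin was precipitated with antibodies to H3K27me3 or H4K20me3, and aliquots precipitated for total H3 or total H4 served for normalization. Each mark was measured in 1 library without replicate, no treatment or genotype was compared, and peak lists give no expression values with which the cell type could be checked. The labels do not say which marker antibody gave the cells of each library, nor how many animals were used beyond 1 adult brain named in the design.

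H4K20me3 is trimethylation of lysine 20 on histone H4. It is written by the SUV420H methyltransferases, which are recruited through HP1 to chromatin that already carries H3K9me3, and it is known from constitutive heterochromatin around centromeres, at transposable elements and over clusters of zinc finger genes. H3K27me3 is written by Polycomb repressive complex 2 and is known from facultative heterochromatin, where developmental genes are held silent. The marks therefore belong to different silencing systems. Genes and sequences under the blocks were not analysed here, because the gene table used was of another genome build (Panubis1.0) than the peaks (papAnu2).

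The block on chromosome 8 was the longest of the 5. In papAnu2 coordinates, counted from 1 here and below, it ran from 41516457 to 43091796 (1575 kb) and held 668 peaks, or 424 per Mb. The block on chromosome 6 ran from 45285768 to 46302362 (1017 kb) and held 613 peaks, the highest density of the 5 at 603 per Mb. On chromosome 3 the block ran from 53962519 to 54933742 (971 kb), with 431 peaks or 444 per Mb. The chromosome 20 block ran from 27958384 to 29059408 (1101 kb), with 428 peaks and the lowest density of the 5, 389 per Mb. The chromosome 11 block was the shortest, from 34204002 to 34766639 (563 kb), with 312 peaks or 555 per Mb. Density thus varied 1.55-fold between blocks, while length varied 2.80-fold, and the order of the blocks by density was not their order by length.

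A single block held a large part of the H4K20me3 peaks of its chromosome. The share was 90.1% of 475 peaks on chromosome 20, 77.8% of 859 on chromosome 8, 55.7% of 774 on chromosome 3, 54.5% of 573 on chromosome 11 and 49.9% of 1229 on chromosome 6. The rest of these chromosomes held 1.04 peaks per Mb on chromosome 20 and 3.56 per Mb on chromosome 6, with the other three between these values. Peaks beside the blocks were few against the 389 to 603 per Mb inside them. Within 1 Mb before the start there were 28 peaks on chromosome 3, 18 on chromosome 11, 15 on chromosome 20, 10 on chromosome 6 and 1 on chromosome 8. On chromosomes 3, 11, 20 and 6 this was more than the rest of the chromosome held per Mb (1.91, 1.98, 1.04 and 3.56). On chromosome 8 it was less (1.38). Within 1 Mb after the end there were 8 on chromosome 8, 5 each on chromosomes 3 and 6, 2 on chromosome 11 and 0 on chromosome 20, where the next peak lay 1208537 bp away. This last count alone was below the value for the rest of its chromosome. Only the start on chromosome 3 lay close to the joining limit. A cluster of 11 peaks ended there 52353 bp before the block.

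Peaks were spread unevenly inside the blocks. The densest window of 50 kb held 48 to 56 peaks in every block, although mean densities differed. These windows began at 42765585 on chromosome 8 (55 peaks), 45866754 on chromosome 6 (56), 54663082 on chromosome 3 (56), 28388056 on chromosome 20 (48) and 34283550 on chromosome 11 (51). Several ends were thinner. The first 50 kb held 4 peaks on chromosome 6, 6 on chromosome 11, 7 on chromosome 20 and 10 on chromosome 8, and the last 50 kb held 9 on chromosome 6 and 14 on chromosome 8. Chromosome 3 had 26 and 27 peaks in its outer windows, chromosome 20 had 28 in its last and chromosome 11 had 37 in its last, so those ends were not thin. With each block divided into 3 equal parts by length, the middle part held 49.8% of the peaks on chromosome 20, 42.3% on chromosome 6, 39.0% on chromosome 3, 37.4% on chromosome 8 and 33.7% on chromosome 11. On chromosomes 8 and 11 the last part held slightly more, 39.4% and 35.6%.

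**Figure D1:**
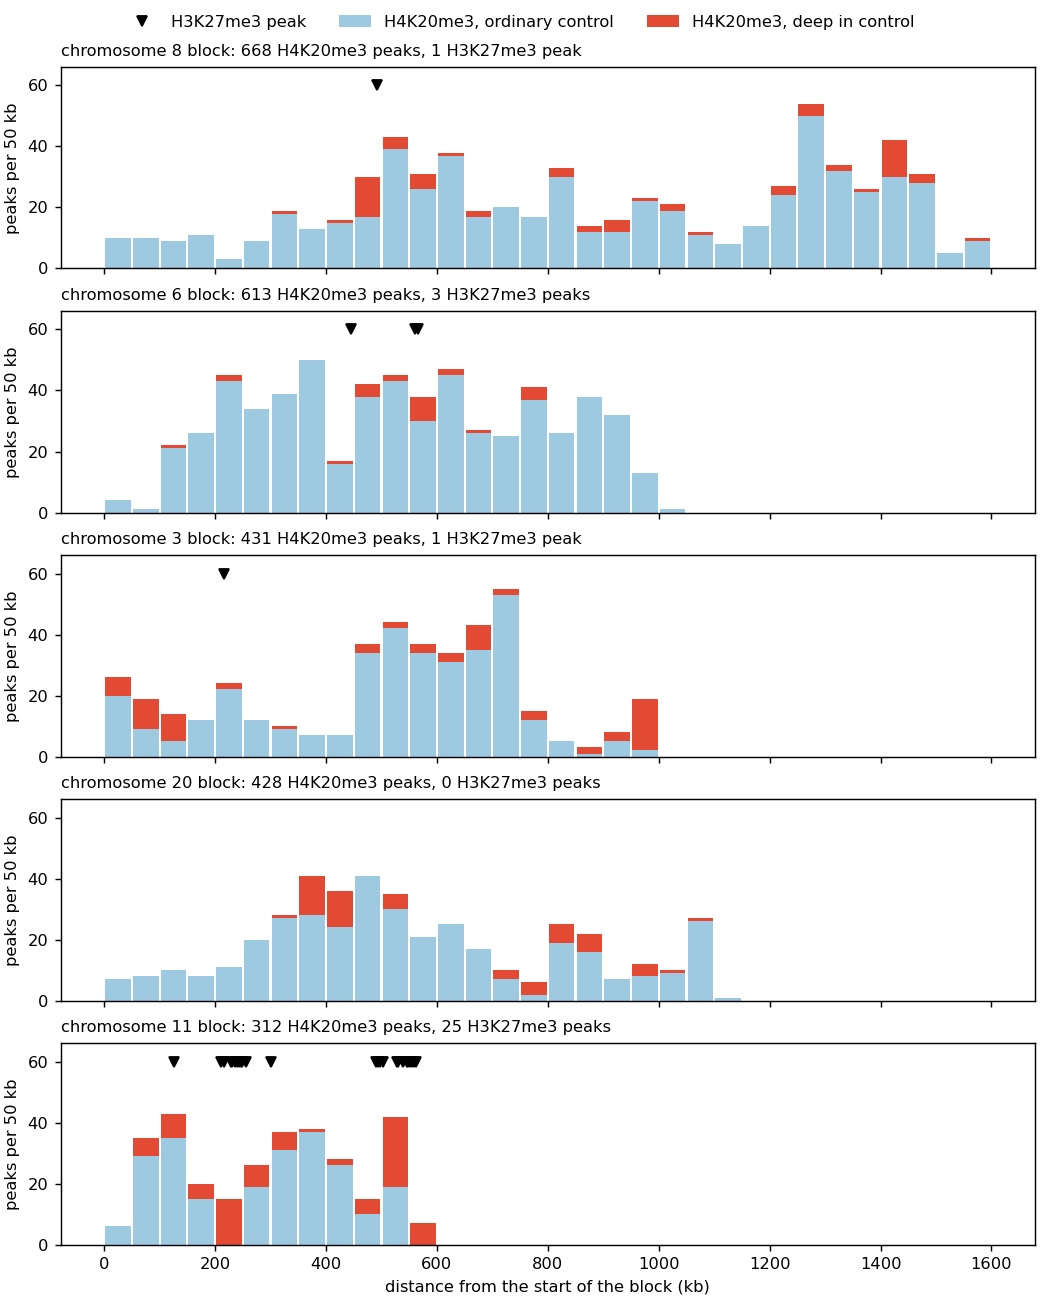
H4K20me3 peaks per 50 kb (bars) against distance from the start of each block in kb, with the part deep in control coverage in red, and each H3K27me3 peak as a triangle at a fixed height. The chromosome 11 block carries 25 of the 30 triangles, and in 2 of its 12 bars, of 15 and 7 peaks, every H4K20me3 peak is deep in control.

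Peaks were mostly narrow and mostly close together. Over all blocks the median width was 366 bp (quartiles 255 and 560), and 144 peaks had the smallest width in the list, 213 bp. The median gap, from the end of a peak to the start of the next, was 531 bp (quartiles 197 and 1538.5). Peaks covered 22.7% of block length. Widths in the whole list, blocks included, had a median of 292 bp.

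The blocks fell in the same order by coverage, by median width and, from shortest to longest, by median gap. Chromosome 11 had 35.2% of its length under peaks, a median width of 416.5 bp (95% order-statistic interval 389 to 444) and a median gap of 413 bp (352 to 526). Chromosome 6 had 29.0% covered, a median width of 386 bp (366 to 403) and a median gap of 464.5 bp (415 to 522). Both had short gaps. Chromosome 3 had 20.2% covered, a median width of 365 bp (345 to 389) and a median gap of 519.5 bp (425 to 638). Chromosome 8 had 18.7% covered, a median width of 338.5 bp (318 to 361) and a median gap of 631 bp (524 to 725). Chromosome 20 had 18.3% covered, a median width of 335 bp (313 to 363) and a median gap of 721 bp (581 to 949). The width intervals of chromosomes 8 and 20 overlapped each other and lay below those of chromosomes 6 and 11, and the interval of chromosome 3 overlapped those of its neighbours in the order. These intervals count peaks as if they were independent, which neighbouring peaks are not.

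**Figure D2:**
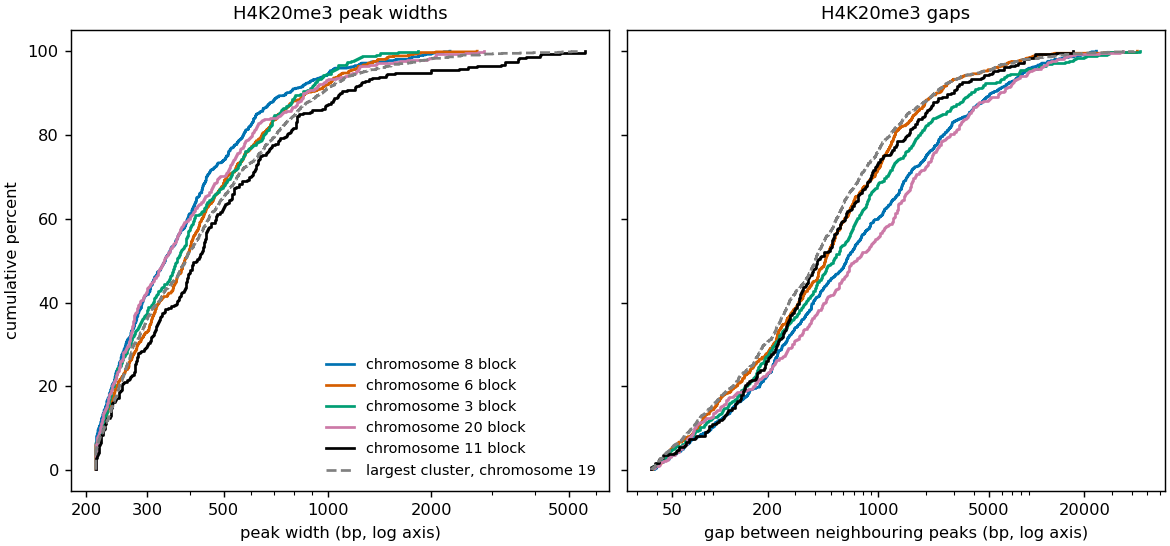
Cumulative percent of H4K20me3 peaks by width (left) and of gaps by length (right), both in bp on log axes, with a line per block and a dashed line for the largest cluster of chromosome 19. The blocks nearly coincide up to gaps of 200 bp (22.6% to 27.9% of gaps are shorter) and separate above, and the chromosome 11 line reaches the greatest widths.

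Short gaps were alike between blocks and long gaps were not. Gaps under 200 bp made up 22.6% on chromosome 8, 23.2% on chromosome 20, 26.0% on chromosome 11, 27.2% on chromosome 3 and 27.9% on chromosome 6. Gaps over 10 kb numbered 24 on chromosome 8, 18 each on chromosomes 3 and 20, 6 on chromosome 6 and 2 on chromosome 11. They took up 35.4% of the chromosome 3 block, 26.3% of chromosome 20, 23.4% of chromosome 8, 14.6% of chromosome 6 and 5.38% of chromosome 11. With these gaps taken out, coverage was 37.2% on chromosome 11, 33.998% on chromosome 6, 31.3% on chromosome 3, 24.9% on chromosome 20 and 24.4% on chromosome 8. Chromosome 3 then stood nearer to chromosome 6 than to chromosomes 8 and 20.

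The longest gap of a block cut off a large part of its peaks only on chromosome 8, where 23865 bp from 42393370 to 42417234 separated 345 peaks from 323. On chromosome 3 the longest gap (45010 bp, 54793060 to 54838069) cut off the last 30 peaks. On chromosome 6 (43271 bp, 45333284 to 45376554) it cut off the first 4, on chromosome 20 (34897 bp, 27996984 to 28031880) the first 7, and on chromosome 11 (16933 bp, 34204277 to 34221209) the first peak alone. Joining only within 10 kb therefore kept 309 of 312 peaks of the chromosome 11 block and 512 of 613 on chromosome 6 in a single piece. The largest piece held 45.3% of the peaks on chromosome 20, 32.3% on chromosome 3 and 27.8% on chromosome 8, which broke into 25 pieces.

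No single spacing between peak summits is read from these blocks. Among pairs of summits less than 6 kb apart, the commonest class of 100 bp lay at 600 to 700 bp on chromosomes 6 and 8, at 1000 to 1100 bp on chromosome 3, 1300 to 1400 bp on chromosome 11 and 1800 to 1900 bp on chromosome 20. Each of these classes held 2.32% to 2.82% of the pairs of its block, or 31 to 62 pairs, where the median class between 1 and 6 kb held 22 to 46.5. These classes were picked as the highest of many and were not tested, so different classes need not be different spacings.

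Median peak height varied little between the blocks, from 3.98 to 4.27. Height is given by the authors' fold over control, which belongs to the summit of the peak. The median fold was 4.27 on chromosome 6, 4.22 on chromosome 11, 4.04 on chromosome 3, 4.03 on chromosome 8 and 3.98 on chromosome 20. The interval of the highest median (4.22 to 4.41) did not overlap that of the lowest (3.81 to 3.9997). Among the 100 peaks of highest fold in the list, 50 were in the blocks, of which 18 were on chromosome 6, 17 on chromosome 3, 6 on chromosome 8, 5 on chromosome 20 and 4 on chromosome 11. Among the 100 widest peaks 39 were in the blocks, and here chromosome 11 led with 16. Among the 100 peaks of highest -log10 q only 26 were in the blocks, near the blocks' 24.5% of the list, and 23 of these were on chromosome 11, 2 on chromosome 6, 1 on chromosome 20 and 0 on chromosomes 3 and 8. The largest cluster of chromosome 19, with 11.8% of the list, held 23 of the 100 highest in fold, 31 of the widest and 5 of the highest in -log10 q. Counts per block are not scaled to block size, which was 312 to 668 peaks. The order of the blocks thus depended on the measure. Chromosomes 6 and 3 held more of the peaks of highest fold. Chromosome 11 held more of the widest and of those with the highest -log10 q.

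The highest peaks and the widest peaks were different ones in every block. On chromosome 8 the highest was chr8:41969678-41970317 (fold 8.48, 640 bp) and the widest chr8:42088244-42090507 (2264 bp, fold 6.78). On chromosome 6 the highest was chr6:46193890-46194601 (fold 7.996, 712 bp) and the widest chr6:46066612-46069325 (2714 bp, fold 5.83). On chromosome 3 the highest was chr3:54462032-54462817 (fold 7.85, 786 bp) and the widest chr3:54582319-54584147 (1829 bp, fold 6.74). On chromosome 20 the highest was chr20:28392967-28393883 (fold 7.06, 917 bp) and the widest chr20:28504821-28507653 (2833 bp, fold 5.57). In these 4 blocks the widest peak was also above the median fold. On chromosome 11 the highest was chr11:34548797-34549817 (fold 7.996, 1021 bp), while the widest, chr11:34445849-34451402 (5554 bp), had a fold of 3.82, below the median of its block. Across the peaks of a block, fold and width went together with a Spearman correlation of 0.34 to 0.43 on chromosomes 3, 6, 8 and 20 and of 0.15 on chromosome 11. Over the peaks with ordinary control it was 0.50 on chromosome 11, within the 0.43 to 0.61 of the other blocks. These correlations are over neighbouring peaks of 1 library and are given as descriptions.

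Control coverage differed between the blocks and along them. The control pileup, meaning the level of control that MACS2 compared with a summit, was derived from each peak's fold and p-value. Peaks are called deep in control here if it exceeded 7.00, which is 2 times the lowest in the list. Of the whole list 14.3% of peaks were deep in control, and of the block peaks 306 of 2452 (12.5%, exact 95% interval 11.2 to 13.9). The share was 4.08% on chromosome 6, 9.88% on chromosome 8, 13.1% on chromosome 20, 17.2% on chromosome 3 and 27.2% on chromosome 11. Deep peaks were wider and lower than ordinary ones in every block. Their median fold was 3.18 to 3.63 against 3.999 to 4.44, and their median width 391 to 749 bp against 321 to 381.5 bp. Fold is a ratio over this same control, so fold and control depth are not separate measures. In the whole H4K20me3 list no peak with ordinary control has a fold under 2.44. Most of this depth was slight. A control pileup over 20 was found at 53 block peaks, 38 of them on chromosome 11. On chromosome 3, which had 74 deep peaks, 25 of the 59 peaks in the first 150 kb of the block were deep, and 20 of the 27 in the last 50 kb. On chromosome 11 these counts were 14 of 84 and 26 of 37. In the other blocks each of these end windows held 0 or 1 deep peak.

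H3K27me3 peaks inside the blocks were few apart from chromosome 11, and each of them lay on an H4K20me3 peak. The H3K27me3 list was not used to choose the blocks. It placed 25 peaks in the chromosome 11 block, 3 in that of chromosome 6, 1 each in those of chromosomes 3 and 8, and 0 in that of chromosome 20. Chromosome 20 has no H3K27me3 peak at all in the list, so its block says nothing separate. Per Mb, the chromosome 11 block held 44.4 H3K27me3 peaks (exact 95% Poisson interval 28.8 to 65.6, counting error only), against 0.175 (0.111 to 0.262) on the rest of chromosome 11. The block, 0.425% of the span of that chromosome, thus held 25 of its 48 H3K27me3 peaks. The chromosome 6 block held 2.95 per Mb (0.609 to 8.62), against 0.301 on the rest of the chromosome. The blocks of chromosomes 3 and 8 held 1.03 (0.0261 to 5.74) and 0.635 per Mb (0.0161 to 3.54), against 0.301 and 0.355 on the rest. These intervals count H3K27me3 peaks as independent, but the peaks were grouped. On chromosome 6, 2 of the 3 lay within the same 50 kb, and on chromosome 11, 23 of the 25 stood in 3 runs. No difference in density was tested. Within 1 Mb outside the blocks the list held 1 H3K27me3 peak on chromosome 3, 1 on chromosome 11 and 0 on chromosomes 6, 8 and 20.

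All 30 H3K27me3 peaks in the blocks met an H4K20me3 peak over at least 1 bp (exact 95% interval 88.4% to 100%), where 31.6% of the whole H3K27me3 list did. The shared length was 41.2 kb, or 93.8% of the length of the 30 peaks, and 15 of them lay wholly within a single H4K20me3 peak. H4K20me3 peaks cover 22.7% of block length, and 35.2% on chromosome 11. The part of this dense filling in the overlap was not tested. Of these 30 peaks, 29 were deep in the control of their own list (control pileup over 10.4, approximate here because folds in this list are means over a region), where 47.0% of the whole H3K27me3 list was. Outside the blocks, 189 of 304 deep H3K27me3 peaks (62.2%) overlapped H4K20me3. With the chromosome 11 block left out, 5 H3K27me3 peaks remained, and each of the 5 overlapped H4K20me3 and was deep in control.

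Seen from H4K20me3, every block peak shared with H3K27me3 was deep in control, as were 262 of the 263 shared peaks outside the blocks. Of the whole H4K20me3 list 3.05% overlapped an H3K27me3 peak, and of the block peaks 42 of 2452 (1.71%, 1.24 to 2.31). Among the 2146 block peaks with ordinary control none did. This allows a share of up to 0.140%, which is 3 divided by 2146 and counts neighbouring peaks as independent. Among 6424 ordinary peaks outside the blocks 1 overlapped an H3K27me3 peak. Among 253 block peaks with a control pileup between 7.00 and 20 there were 3 (1.19%), and among 53 above 20 there were 39 (73.6%). Outside the blocks 249 of 435 peaks above 20 were shared (57.2%). On chromosomes 3, 6 and 8 together, 7 of 10 peaks above 20 were shared, and 0 of 155 between the limits. The counts over all 5 blocks include 372 ordinary peaks, 51 between the limits and 5 above 20 on chromosome 20. None of these could be shared, because the list has no H3K27me3 peak on that chromosome. The limit of 0.140% is therefore too low for the ordinary peaks of the other blocks. Peaks shared with H3K27me3 had medians of 1239.5 bp for width, 3.27 for fold and 44.1 for control pileup. In deep peaks that were not shared the medians were 453.5 bp, 3.33 and 8.37 in the same order. The part of control depth in the overlap was not tested. Where control is ordinary, the lowest H3K27me3 fold in the list is 2.42, so a weaker enrichment was not detectable there, and 27 of the 30 H3K27me3 peaks in the blocks had a fold below that value.

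**Figure D3:**
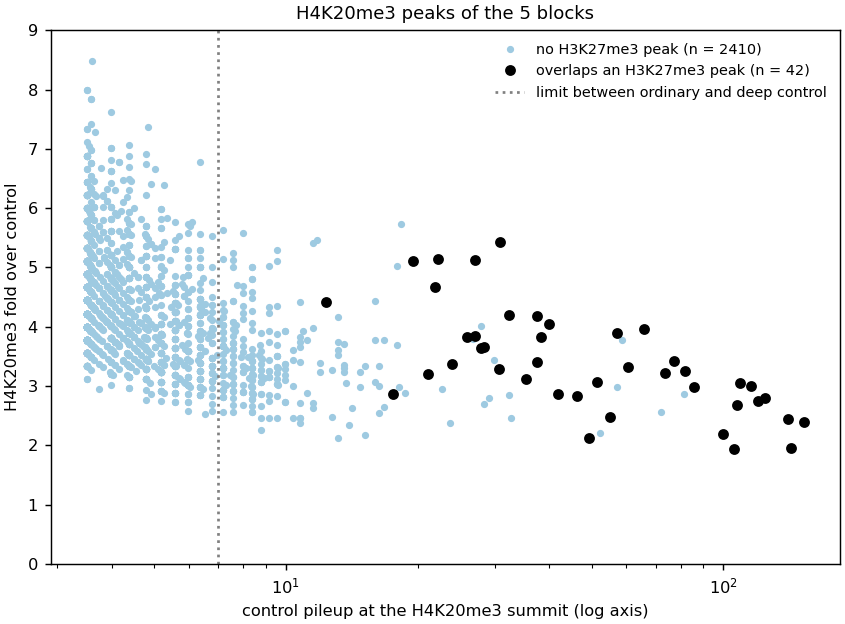
H4K20me3 fold over control against the control pileup at the summit (log axis) for the 2452 block peaks, with the 42 that overlap H3K27me3 in black and the limit of 7.00 as a dotted line. All black points lie to the right of the limit, and 39 of them above a pileup of 20.

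On chromosome 11 the H3K27me3 peaks stood in runs. Joined within 20 kb they formed a run of 10 peaks (34414519 to 34461824), a run of 4 (34694100 to 34707192), a run of 9 (34732145 to 34766519) and 2 single peaks. The last run ends 120 bp before the end of the block. After the block no H4K20me3 peak follows for 781273 bp. The 3 runs together span 94.8 kb of the 563 kb.

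The runs differed from the rest of the block in the H4K20me3 list as well. Coverage in a run was taken from the start of the first to the end of the last H4K20me3 peak that met it. Such a stretch begins and ends on a peak, unlike a part of the block chosen without regard to peaks. In the run of 10, peaks of H4K20me3 covered 75.2% of this stretch, with medians of 1484 bp for width, 3.79 for fold and 27.1 for control pileup. In the run of 4 they covered 87.1%, with medians of 1177 bp, 3.87 and 19.9. In the run of 9 they covered 75.7%, with medians of 1043.5 bp, 2.93 and 81.5. All 17, 6 and 20 H4K20me3 peaks in these runs were deep in control. The other 269 H4K20me3 peaks of the block had medians of 391 bp for width, 4.27 for fold and 3.91 for control pileup, and 42 of them were deep. Wide H4K20me3 peaks, deep control and H3K27me3 peaks thus stood together in the runs, and the part of control depth in the other two was not tested. This was not so over the whole block. Outside the runs lay 42 of its 85 deep peaks, and also wide peaks with ordinary control. One of the latter is its peak of highest fold, chr11:34548797-34549817 (1021 bp, control pileup 3.50).

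The H3K27me3 folds, which are ratios over control, were lowest in the run of deepest control. They were 1.60 to 2.42 (median 2.01) in the run of 10, 1.96 to 2.57 (median 2.02) in the run of 4 and 1.53 to 1.97 (median 1.60) in the run of 9, where the median control pileup was 31.8, 23.7 and 114. The widest, at 7719 bp, was chr11:34739905-34747623 in the run of 9, with a fold of 1.60, and it crossed 4 H4K20me3 peaks. The highest fold, 2.87, belonged to a single peak of 346 bp, chr11:34329735-34330080, which is also the first in the block. Its control pileup was 13.4 and 55.8% of it was shared with H4K20me3. The last H3K27me3 peak in the block was chr11:34766177-34766519, of 343 bp and fold 1.69, and all of it was shared with H4K20me3. The next peaks were singled out after their values were seen. The only H3K27me3 peak in the blocks with ordinary control was chr11:34706925-34707192, of 268 bp and fold 2.57, and the H4K20me3 peak it met was deep in control (17.5). The widest H4K20me3 peak of the block, named above, held 2 H3K27me3 peaks with folds of 1.75 and 1.79 wholly within it.

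In the other blocks the H3K27me3 peaks are named with the H4K20me3 peaks they met, which were chosen after their values were seen, as were the chromosome 20 peaks. On chromosome 8 the only one was chr8:42007321-42008789 (1469 bp, fold 1.501, control pileup 162), and it met the H4K20me3 peak with the highest control of that block (chr8:42007297-42008234, fold 1.96, control pileup 143). On chromosome 6 they were chr6:45729985-45730706 (722 bp, fold 1.88), chr6:45845226-45847070 (1845 bp, fold 1.74) and chr6:45851486-45851873 (388 bp, fold 1.72). The last of these met the H4K20me3 peak with the highest control on chromosome 6 (106). The second met an H4K20me3 peak of fold 5.42, the highest fold of any shared peak in the blocks. On chromosome 3 the only one was chr3:54178791-54180165 (1375 bp, fold 1.73, control pileup 54.4), and it crossed 2 H4K20me3 peaks, one of them that with the highest control on chromosome 3 (55.01). Chromosome 20 also had peaks of deep control, chr20:28679084-28681584 (2501 bp, control pileup 72.2) and chr20:28682047-28684766 (2720 bp, 57.0). No H3K27me3 peak of the list lies on that chromosome, so they could not be shared.

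Beside the largest cluster of chromosome 19, from 20657491 to 22613235 with 1177 peaks, the blocks of chromosomes 6 and 11 had the closest widths, gaps and coverage. That cluster had a median width of 389 bp and a coverage of 32.1%, both between the values of those 2 blocks, and a median gap of 400 bp, just below the 413 bp of chromosome 11. Of its peaks 5.18% were deep in control, near the 4.08% of chromosome 6 and furthest from the 27.2% of chromosome 11. It held 0 H3K27me3 peaks, against 25 in the chromosome 11 block. The 10 smaller autosomal clusters outside chromosome 19, of at least 50 but under 300 peaks, had median gaps of 304.5 to 1549 bp and coverages of 8.22% to 30.9%. These ranges take in every block except for the coverage of chromosome 11. The shortest gap and the highest coverage, however, both belong to the cluster of 67 peaks on chromosome 1. The medians over the 10 clusters were 1072 bp and 14.1%, a longer gap and a lower coverage than in any block. Of the peaks in these clusters 19.2% were deep in control and 5.20% overlapped H3K27me3, but both shares rest on few clusters. A cluster of 58 peaks on chromosome 9 held 33 of the 47 overlapping peaks, and without it 14 of 846 overlapped (1.65%, against 1.71% in the blocks). Clusters on chromosomes 4 and 9 held 50 and 53 of the 174 deep peaks, the median cluster had 7.82% deep, and 6 of the 10 clusters had no overlapping peak. All 47 of the overlapping peaks in these clusters were deep in control, as in the blocks. These are descriptions of clusters chosen by the same positions, and no difference between them was tested.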

How the data were processed

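Per the submitters' processing notes, the tools were Bowtie 1.1.1, an aligner, and MACS2 2.1.0.20140616, a peak caller. The build is papAnu2, per the file names. Parameters are not given in the sources used here. The deposited H4K20me3 list is in narrow-peak layout and the deposited H3K27me3 list (709 peaks) in broad-peak layout. Each deposited list gives fold enrichment, a ratio over control, with its p-value and q-value as -log10. The score column of the deposited lists is derived from q and was not used. The deposited summit offset is in bp. The H4K20me3 list holds exactly 10000 peaks and ends on chromosome X. If it was ended there in file order, shares of the list are upper values and the autosomal blocks are complete. The total H4 sample was not analysed here. The labels state over 200 M tags; counts per library are unknown.

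The control pileup was solved from fold, taken as (ChIP + 1)/(control + 1), and the Poisson upper tail p. All H4K20me3 ChIP pileups came out whole within 0.02. In the H3K27me3 list 5.78% did, since its folds are means over a region, so its control pileups are approximate. The span of a chromosome is the largest peak end in either list. Joining and solving were tested on simulated data. The naming rule took each block with its peak of highest fold, widest peak, longest gap, densest 50 kb and nearest peak or cluster outside each end. It took every H3K27me3 peak in blocks with at most 5, otherwise the widest, the highest in fold and the outermost ones. Peaks named for their control pileup, or as partners of an H3K27me3 peak, were chosen after their values were seen. The members and lists were chosen with earlier results of these data known, and runs and control limits after seeing values. Joining gap, block size, peak thresholds, overlap rule and left-out blocks were varied. Intervals cover counting error only. Python 3.11.15, numpy 2.4.6, scipy 1.17.1, pandas 2.3.3 and matplotlib 3.10.9 were used.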

Additional observations from a re-analysis of the deposited data

How the results depend on the processing

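With 1 library per mark no replicate could be left out, and each block was left out in turn instead. No paired analysis was possible because each mark has 1 library. Of 86 alternative values, 63 stayed within 1.5 times the main value (medians: within the interval of 356 to 376 bp for width and 493 to 576 bp for gap) and 23 moved beyond. Joining within 25 or 100 kb left 5 blocks of 2325 or 2476 peaks. Keeping H4K20me3 peaks with a -log10 q of at least 5 left 2 blocks, on chromosomes 6 and 8, with 670 peaks, a median width of 451.5 bp and gap of 968.5 bp, and 4 H3K27me3 peaks, 4 of them overlapping. Keeping folds of at least the list median left 2 blocks on the same chromosomes, with 848 peaks, 400 bp, 946.5 bp, and 4 H3K27me3 peaks, 1 overlapping. With ordinary control alone 4 blocks were left, none of them on chromosome 11. The main chromosome 11 block had 227 ordinary peaks, under the limit of 300, and they were also no longer joined within 50 kb into a single cluster. The limit was not lowered when peaks were filtered out by q, fold or control, so a block could be lost by its smaller count alone. In the 4 blocks the median width was 349 bp and the gap 645 bp, and of 5 H3K27me3 peaks 0 overlapped. H3K27me3 in blocks rests on chromosome 11: without it, or with at least 400 peaks required, 5 remained, 5 of them overlapping. With an H3K27me3 fold of at least that list's median 1 remained. With overlap of 50% of the shorter peak 29 of 30 did. Control limits of 3 and 5 times the lowest, added after seeing the data, left 106 and 60 deep block peaks and 42 and 41 of the 42 shared ones.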
